A study of Rattus norvegicus with 6 samples.

Results

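The 36 rat genes described here encode the enzymes of glycolysis and gluconeogenesis, the enzymes that make and break fructose-2,6-bisphosphate, 3 enzymes of fructose and polyol metabolism and the glucose-6-phosphate carrier of the endoplasmic reticulum. They were taken by symbol from a fixed list, and each was read from its brightest probe, provided that 3 or more of the 6 arrays showed it well above background. All 36 had a named probe and 35 were measured, among 27506 genes tested in all. Hk2 did not pass the requirement on brightness.

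Glycolysis splits glucose to pyruvate, and gluconeogenesis runs most of the same steps backwards with its own enzymes at the irreversible ones. In the kidney the work is divided along the nephron. Proximal tubule cells make glucose from lactate, glutamine and glycerol, take up and burn fructose through ketohexokinase, and use little glucose themselves, while the segments that follow, from the thick ascending limb to the collecting duct, hold most of the glycolytic capacity. Several steps are carried out by isozymes from separate genes, each of which is typical of certain tissues, such as Pklr of liver and proximal tubule and Pkm of most other cells.

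Bromate rats received potassium bromate, an oxidant that injures kidney tubules, at 100 mg/kg/day for 4 weeks (n = 3), and water rats, their controls, received water for the same time (n = 3). All 6 were male Sprague-Dawley rats of the Crl:CD(SD) stock, bought at an age of 5 weeks, with no genetic alteration and no other treatment in the labels. Total RNA of the renal cortex of each animal went on its own single-colour array. The comparison asked how gene expression in the renal cortex differed between bromate and water rats.

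Each array held 61537 probes besides control spots, of which 57.9% to 63.1% were well above background, and saturation was seen in 0 probes. Slides were unevenly used: 1 slide and scan carried only water replicate 1, and a second slide carried all 5 remaining arrays. A fit with slide as a block therefore rests on those 5 arrays and gives their within-slide values. It is the same fit as leaving out water replicate 1, so they are not separate checks. Markers of kidney tubules were present on every array. The 11 markers of the convoluted proximal tubule averaged 5.97, 5.92 and 5.89 in bromate replicates 1, 2 and 3, against 6.12, 6.22 and 6.35 in water replicates 1, 2 and 3. The 5 measured thick limb and distal tubule markers averaged 2.10, 1.98 and 2.22 in bromate rats, against 3.86, 3.93 and 3.73 in water rats. Limma, with p-values adjusted by Benjamini-Hochberg over the whole array, called 1891 as risen and 2088 as fallen, and the median difference over all genes was -0.02.

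Each level is the log2 signal of a probe less the log2 of its array's 75th percentile, and differences are bromate minus water on that log2 scale ± standard error, with n = 3 per group. Values are always listed in the order of replicates 1, 2 and 3. Adjusted p-values come from limma with Benjamini-Hochberg adjustment, with a threshold of 0.05. A level belongs to its probe, so levels are compared between arrays and not between genes. Because whole cortex was used, fewer cells of a type and less RNA per cell cannot be told apart in any value below. With 6 arrays in all, their number limits the precision.

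Of the 35 measured genes, 4 rose, 10 fell and 21 did not pass the test. Over all genes 14.5% were called, 6.87% as risen and 7.59% as fallen. The genes that rose were Pfkfb1, Eno2, Ldha and Fbp2. The genes that fell were Tpi1, Pgam2, Eno1, Eno3, Pkm, Pc, G6pc1, Slc37a4, Khk and Tkfc. The median difference over the 35 genes was -0.17, and the differences ranged from -2.67 for Pgam2 to 1.52 for Pfkfb1. In 8 genes all bromate values lay above all water values, in 16 all lay below, and in 11 the groups overlapped. Over all genes tested 41.0% had no overlap between groups, 19.6% higher and 21.5% lower in bromate rats. At least 2-fold, Pfkfb1 and Fbp2 rose and Pgam2 fell, beside 2.22% and 1.96% of all genes. With normexp background correction Pfkfb1 (0.84) and Fbp2 (0.993) were under 2-fold, and so was Fbp2 with the mean of its probes (0.98).

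Most of these calls were close to the threshold. With each of the 6 arrays left out in turn, the calls of Pfkfb1 and Fbp2 held every time. Those of 12 genes were lost for at least 1 array left out, and those of 5 (Tpi1, Eno1, Eno3, Pkm and Ldha) for any array left out. No direction of a called gene changed on leaving out an array. Other processing also ended calls: those of Tpi1, Eno1 and Pc with quantile normalization (adjusted p = 0.0655 to 0.13), those of Eno1, Eno2, Pc and Slc37a4 with normexp (adjusted p = 0.0565 to 0.922), those of Eno3, Pkm and Ldha with the mean of each gene's probes (adjusted p = 0.0535 to 0.0625), and 11 of the 14, all but Pfkfb1, Pgam2 and Fbp2, without the filter on dim probes (adjusted p = 0.0552 to 0.136). Of the 14 calls, 5, 2 and 3 held when bromate replicates 1, 2 and 3 were left out, and 8, 2 and 3 when water replicates 1, 2 and 3 were left out.

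**Figure D1:**
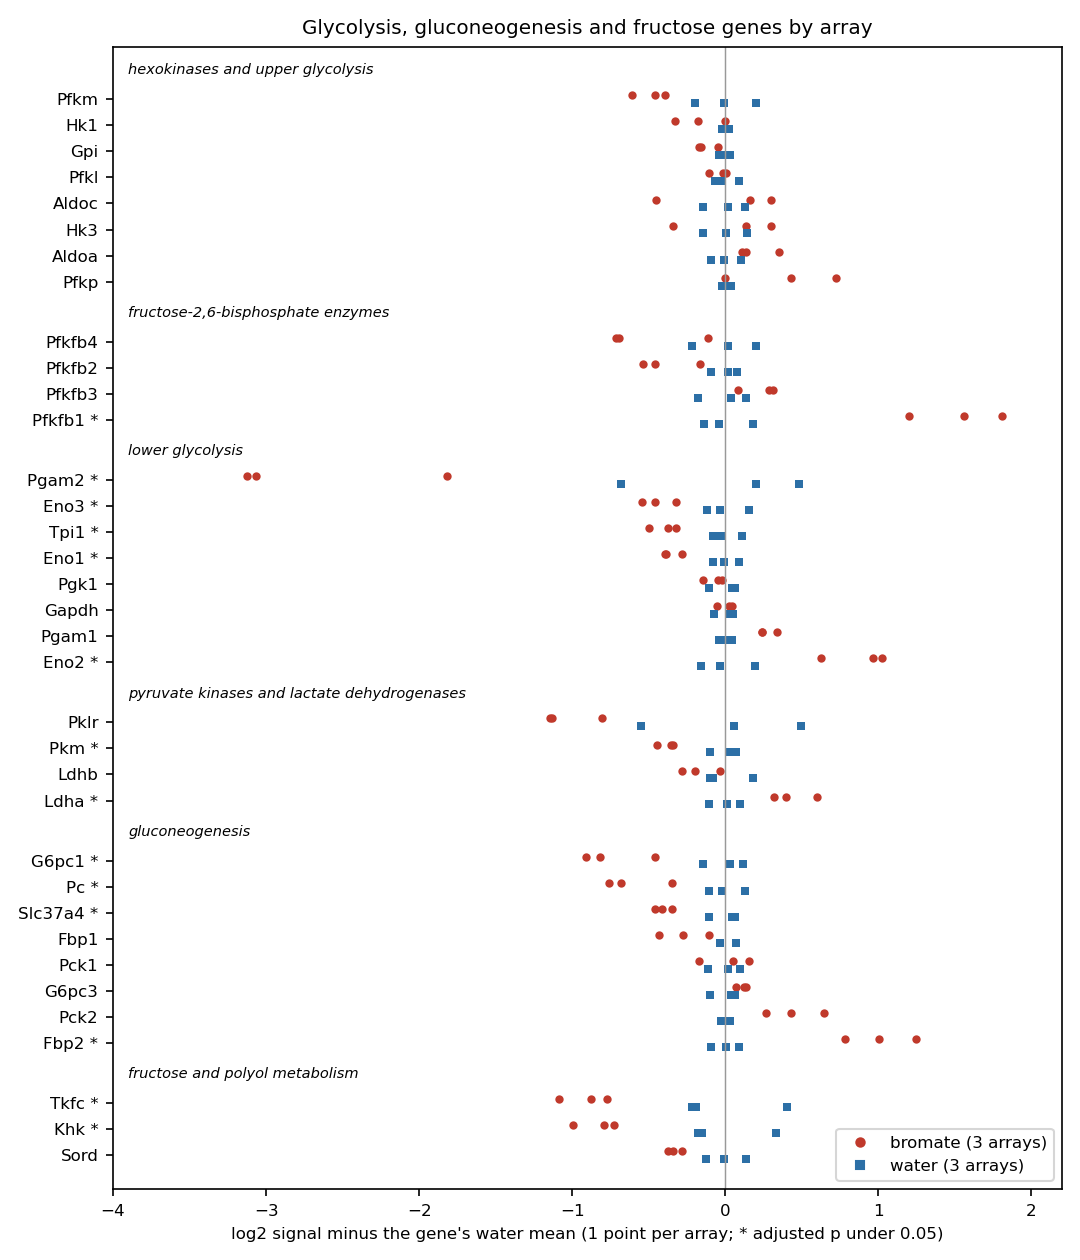
Level of each of the 35 measured genes on each array, drawn as its log2 signal minus the gene's mean over the 3 water arrays (horizontal axis), in 1 row per gene grouped by role, with bromate arrays (circles) above water arrays (squares) and a star for an adjusted p under 0.05. Pgam2 lies farthest to the left (-2.67) and Pfkfb1 farthest to the right (1.52), and in 11 genes the groups overlap.

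The enzymes of fructose breakdown were lower in bromate rats. Khk encodes ketohexokinase, which phosphorylates fructose to fructose-1-phosphate. Its levels were 7.18, 6.98 and 7.25 in bromate rats, against 8.31, 7.82 and 7.80 in water rats. Khk fell by 0.84 ± 0.17 on the log2 scale, 1.79-fold (adjusted p = 0.0282), the groups did not overlap, and water replicate 1 was the highest of the controls. Tkfc encodes the triokinase that phosphorylates the glyceraldehyde made from fructose-1-phosphate. It measured 2.08, 1.88 and 2.19 in bromate rats, against 3.37, 2.75 and 2.77 in water rats, and was 1.88-fold lower (-0.91 ± 0.19, adjusted p = 0.034). In Tkfc, as in Khk, water replicate 1 stood above the other controls. Sord, whose product oxidises sorbitol to fructose in the polyol pathway, had 4.14, 4.11 and 4.21 in bromate rats, against 4.36, 4.48 and 4.62 in water rats. The groups did not overlap, but the difference of -0.33 ± 0.10 did not pass the test (adjusted p = 0.0693).

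Both calls of the fructose genes depended on the arrays. Within the shared slide the differences were smaller, -0.67 for Khk (adjusted p = 0.0308) and -0.71 for Tkfc (adjusted p = 0.0315). The call of either gene held without water replicate 1, which is that same within-slide fit. Either call was lost when any other array was left out, with adjusted p up to 0.091 for Khk and 0.106 for Tkfc. A second probe of Khk differed by -0.86 ± 0.21 (adjusted p = 0.0481).

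Some markers of the straight proximal tubule varied widely among the water rats. The widest spread was that of Slc22a7 (0.83, -2.71 and -5.06) and Slc7a13 (7.61, 4.83 and 2.54). Slc22a7 was well above background on only 2 of 3 arrays in either group. Limma called 0 of the 7 measured markers. In bromate rats 5 were lower and 2, Slc5a8 (1.03) and Cyp7b1 (0.11), were higher. The mean over the 7 markers was 0.05, -0.49 and 0.29 in bromate rats, against 2.19, 1.17 and 0.07 in water rats. The third control was thus within the bromate range. With this mean as a covariate, the differences were -0.54 for Khk (adjusted p = 0.116), -0.57 for Tkfc (adjusted p = 0.143), -0.46 for Pklr (adjusted p = 0.146) and -0.85 for G6pc1 (adjusted p = 0.0947). In that fit of limma 0 of the 35 genes were called, and 426 genes rose and 345 fell over the whole array. Pfkfb1 (1.51, adjusted p = 0.0583) and Fbp2 (1.08, adjusted p = 0.065) lost their calls in it with differences close to those of the main fit. The covariate was itself mostly lower in bromate rats and costs degrees of freedom, so this fit cannot separate straight tubule content from treatment. Khk, Tkfc, Pklr and G6pc1 kept the sign of their difference, and the part of straight tubule content in them was not tested beyond this fit.

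**Figure D2:**
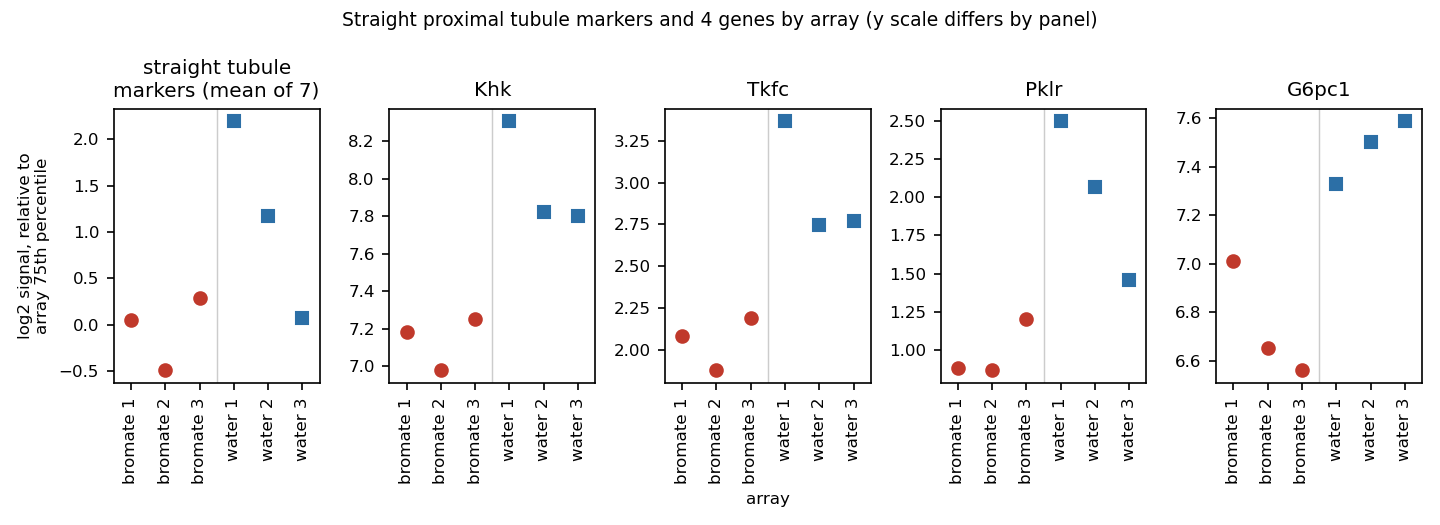
Mean level of 7 straight proximal tubule markers and levels of Khk, Tkfc, Pklr and G6pc1 on each array (log2 relative to the array's 75th percentile, vertical axes with a scale per panel), with the 3 bromate arrays left of the 3 water arrays. Water replicate 1 is the highest of the controls for the markers (2.19), Khk, Tkfc and Pklr, and the lowest for G6pc1 (7.33).

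In gluconeogenesis, the genes for the last steps of glucose release and for the entry of pyruvate were lower, and the gene of the other fructose-1,6-bisphosphatase was higher. Of 8 measured genes 1 rose and 3 fell. G6pc1 encodes the glucose-6-phosphatase of liver and proximal tubule, which frees glucose from its phosphate in the endoplasmic reticulum. Its levels were 7.01, 6.65 and 6.56 in bromate rats, against 7.33, 7.50 and 7.59 in water rats, without overlap. G6pc1 was 1.66-fold lower in bromate rats (-0.73 ± 0.15, adjusted p = 0.029), and -0.80 within the shared slide (adjusted p = 0.0425). The call was lost without bromate replicate 2, bromate replicate 3, water replicate 2 or water replicate 3, with adjusted p up to 0.0959. The partner of this enzyme, the glucose-6-phosphate carrier encoded by Slc37a4, had 5.997, 5.89 and 5.93 in bromate rats, against 6.24, 6.41 and 6.39 in water rats. Slc37a4 was 1.33-fold lower (-0.41 ± 0.09, adjusted p = 0.0327), -0.46 within the shared slide (adjusted p = 0.0345), and its call held only without water replicate 1, with adjusted p up to 0.11 otherwise. G6pc3, the glucose-6-phosphatase found in most tissues, differed by 0.11 ± 0.08 (adjusted p = 0.408).

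Pc encodes pyruvate carboxylase, which makes oxaloacetate from pyruvate in mitochondria. Its levels were 7.09, 7.17 and 7.50 in bromate rats, against 7.97, 7.82 and 7.74 in water rats, with no overlap. Pc was 1.51-fold lower (-0.60 ± 0.14, adjusted p = 0.0398), and a second probe gave -0.78 ± 0.14 (adjusted p = 0.0207). Within the shared slide the difference of Pc was -0.53 (adjusted p = 0.0822), and the call held only without bromate replicate 3, with adjusted p up to 0.12 otherwise.

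Pck1, the cytosolic phosphoenolpyruvate carboxykinase that sets the rate of renal glucose production, had 7.82, 7.49 and 7.72 in bromate rats, against 7.68, 7.55 and 7.76 in water rats. The groups overlapped fully, with a difference of 0.01 ± 0.12 (adjusted p = 0.951) on the brighter probe and -0.20 ± 0.10 (adjusted p = 0.219) on the other. Pck2, the mitochondrial form, measured 2.54, 2.69 and 2.91 in bromate rats, against 2.24, 2.27 and 2.30 in water rats. All bromate values were above all water values, and the difference of 0.45 ± 0.11 did not pass (adjusted p = 0.0527). Of the 2 dimmer Pck2 probes, the first differed by 0.43 ± 0.08 and was called (adjusted p = 0.0252), while the second, at 0.60 ± 0.18, was not (adjusted p = 0.0783).

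Of the fructose-1,6-bisphosphatase genes, Fbp2 rose and Fbp1 was called on only 1 of its 2 probes. Fbp2 encodes the form typical of muscle. It had 1.51, 1.27 and 1.05 in bromate rats, against 0.35, 0.27 and 0.17 in water rats, and rose 2.02-fold (1.01 ± 0.14, adjusted p = 0.0112). The lowest bromate value stood clear of the highest water value. The second probe of Fbp2 rose by 0.94 ± 0.11 (adjusted p = 0.00764), the within-slide difference was 1.06 (adjusted p = 0.0259), and the call held with any array left out (adjusted p up to 0.0491). Fbp1, the liver and kidney form, had 8.91, 8.59 and 8.74 in bromate rats, against 9.09, 8.98 and 8.99 in water rats. Its bromate values all lay below its water values, but the difference of -0.27 ± 0.11 did not pass on the brighter probe (adjusted p = 0.14), whereas the second probe, at -0.40 ± 0.09, did (adjusted p = 0.0424). Fbp1 and Fbp2 are direct neighbours on rat chromosome 17, with 0 genes between them in the RefSeq gene order of GRCr8.

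Fructose-2,6-bisphosphate activates phosphofructokinase and inhibits fructose-1,6-bisphosphatase, and the 4 Pfkfb genes encode the bifunctional enzymes that make and break it. Of these Pfkfb1, the liver and muscle form, rose and the other 3 did not pass. Pfkfb1 had -2.93, -2.32 and -2.57 in bromate rats, against -4.18, -3.96 and -4.27 in water rats. The groups were separated by more than their spread, 2.88-fold (1.52 ± 0.18, adjusted p = 0.00729), and with normexp the difference was 0.84 (adjusted p = 0.00925). A second probe, also higher in bromate rats, was well above background on only 1 of the 3 water arrays, so no size is given for it. Within the shared slide the difference of Pfkfb1 was 1.50 (adjusted p = 0.0237), and the call held with any array left out (adjusted p up to 0.0319).

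Pfkfb2, typical of heart and kidney, gave opposite results on its 2 probes. On the brighter it had -3.21, -2.83 and -3.13 in bromate rats, against -2.65, -2.76 and -2.59 in water rats (-0.39 ± 0.12, adjusted p = 0.0895). On the dimmer it had -2.78, -2.67 and -2.88 in bromate rats, against -3.27, -3.19 and -3.07 in water rats, and this probe was called as higher (0.40 ± 0.10, adjusted p = 0.044). No direction is given for Pfkfb2. Pfkfb3 differed by 0.23 ± 0.12 (adjusted p = 0.243), a difference that turned to -0.04 with normexp background correction. Pfkfb4 differed by -0.51 ± 0.20 (adjusted p = 0.145).

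In upper glycolysis, from hexokinase to aldolase, 0 of 8 measured genes passed limma's test, and 1 had an unadjusted p under 0.05. Hexokinases trap glucose as glucose-6-phosphate. Hk1, the form of most tissues, had 1.74, 2.07 and 1.89 in bromate rats, against 2.10, 2.07 and 2.05 in water rats (-0.17 ± 0.10, adjusted p = 0.309), and the groups overlapped. Hk3, found mainly in white blood cells, differed by 0.03 ± 0.18 (adjusted p = 0.922). Hk2, the insulin-responsive form of muscle and fat, was well above background on 1 of 3 bromate arrays and on 0 of 3 water arrays. Its brighter probe had -4.23, -4.61 and -3.76 in bromate rats, against -5.22, -5.90 and -5.47 in water rats. Most of these values are not well above background, so no fold is given, and in a fit that keeps dim probes Hk2 was not called (adjusted p = 0.0714).

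Phosphofructokinase commits fructose-6-phosphate to glycolysis. Pfkm, the muscle type subunit, had 1.72, 1.87 and 1.94 in bromate rats, against 2.13, 2.32 and 2.53 in water rats. The groups did not overlap and the difference of -0.49 ± 0.13 missed the threshold (adjusted p = 0.0569), which it passed within the shared slide (-0.58, adjusted p = 0.0428). Pfkl, the liver type subunit, had -0.50, -0.53 and -0.61 in bromate rats, against -0.42, -0.58 and -0.53 in water rats (-0.04 ± 0.08, adjusted p = 0.788). Pfkp, the platelet type subunit, had 2.68, 3.41 and 3.11 in bromate rats, against 2.66, 2.67 and 2.72 in water rats, with 2 bromate arrays above all controls and the third among them (0.38 ± 0.19, adjusted p = 0.216). Gpi, Aldoa and Aldoc, for glucose-6-phosphate isomerase and aldolases A and C, differed by -0.13, 0.20 and 0.00 and were not called, with adjusted p from 0.242 to 0.999.

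In lower glycolysis, from triose phosphate isomerase to enolase, 4 of 8 genes fell and 1 rose. Pgam2 showed the widest difference of all 35. It encodes the muscle form of phosphoglycerate mutase, and had -0.41, -1.71 and -1.65 in bromate rats, against 1.61, 1.89 and 0.73 in water rats. Every bromate value lay below every water value, though the arrays of each group differed among themselves. Pgam2 was 6.36-fold lower (-2.67 ± 0.46, adjusted p = 0.0199), -2.57 within the shared slide (adjusted p = 0.0489), and the call was lost without bromate replicate 2, bromate replicate 3 or water replicate 2, with adjusted p up to 0.0694. Pgam1, the form of most other tissues, had 7.66, 7.56 and 7.56 in bromate rats, against 7.28, 7.32 and 7.36 in water rats, a separation that did not pass the test (0.27 ± 0.08, adjusted p = 0.0648).

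Of 7 skeletal muscle markers, 4 were measured and 0 were called by limma, with 1 at an unadjusted p under 0.05. Their mean was -2.36, -2.21 and -2.42 in bromate rats, against -3.23, -2.70 and -2.59 in water rats. Tnnt3 (1.07), Tnnc2 (0.51) and Acta1 (0.46) were higher in bromate rats, while Mb differed by -0.01. Acta1 was well above background on only 2 of 3 water arrays. The defining markers Ckm, Myh1 and Myh4 were not measured because they did not pass the requirement on brightness. Pgam2 itself had only 1 named probe. The part of muscle tissue in the Pgam2 difference was not tested.

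The 3 enolase genes encode the enzyme that makes phosphoenolpyruvate. Eno1, the form of most tissues, was lower on all 3 bromate arrays. Its levels were 7.35, 7.45 and 7.35 in bromate rats, against 7.82, 7.73 and 7.66 in water rats (-0.35 ± 0.08, 1.28-fold lower, adjusted p = 0.0447). Eno3, the muscle form, had 0.78, 0.92 and 0.70 in bromate rats, against 1.39, 1.12 and 1.21 in water rats (-0.44 ± 0.11, 1.36-fold lower, adjusted p = 0.0483). Eno2, the form of neurons and endocrine cells, went the other way. It had -2.37, -1.97 and -2.03 in bromate rats, against -2.80, -3.03 and -3.15 in water rats, and rose 1.83-fold (0.87 ± 0.15, adjusted p = 0.0199) without overlap. The second probe of Eno2 differed by only 0.08 ± 0.13 (adjusted p = 0.698), so the rise rests on 1 probe. It also rests on the background correction: with normexp the difference of Eno2 was 0.016 (adjusted p = 0.922).

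Tpi1, for triose phosphate isomerase, had 5.72, 5.90 and 5.84 in bromate rats, against 6.33, 6.19 and 6.14 in water rats. It was 1.32-fold lower (-0.40 ± 0.09, adjusted p = 0.0441), the groups were apart, and all 3 probes of the gene were called. Gapdh, which encodes glyceraldehyde-3-phosphate dehydrogenase and is often used as a reference gene, had 7.35, 7.25 and 7.33 in bromate rats, against 7.33, 7.23 and 7.36 in water rats. Its difference was 0.00 ± 0.08 (adjusted p = 0.977), and over its 5 probes the differences ran from -0.13 to 0.03 with 0 called. Pgk1, for phosphoglycerate kinase, differed by -0.07 ± 0.09 (adjusted p = 0.617). Within the shared slide Eno2 rose by 0.97 (adjusted p = 0.028), while Tpi1 (-0.34, adjusted p = 0.0782), Eno1 (-0.31, adjusted p = 0.0787) and Eno3 (-0.37, adjusted p = 0.0811) were not called. The calls of Tpi1, Eno1 and Eno3 were lost with any array left out (adjusted p up to 0.116, 0.125 and 0.127), and that of Eno2 without bromate replicate 2, bromate replicate 3, water replicate 2 or water replicate 3 (adjusted p up to 0.0734).

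Pyruvate kinase makes pyruvate, and lactate dehydrogenase turns it into lactate and back. Pkm, the pyruvate kinase of most tissues, had 1.80, 1.70 and 1.81 in bromate rats, against 2.18, 2.05 and 2.22 in water rats. It was 1.30-fold lower (-0.38 ± 0.09, adjusted p = 0.0377), with no overlap between groups. Pklr, the pyruvate kinase of liver and proximal tubule, had 0.88, 0.86 and 1.20 in bromate rats, against 2.50, 2.07 and 1.45 in water rats. All its bromate values were lower, but the controls ranged so widely that a difference of -1.03 ± 0.27 did not pass (adjusted p = 0.0579). Without water replicate 3, the lowest control, the difference was -1.30 and passed (adjusted p = 0.0333).

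Ldha, the lactate dehydrogenase subunit that prevails in muscle and in cells short of oxygen, had 6.54, 6.26 and 6.34 in bromate rats, against 6.04, 5.84 and 5.96 in water rats. It rose 1.35-fold (0.44 ± 0.11, adjusted p = 0.049), and its second probe gave 0.41 ± 0.12 (adjusted p = 0.0783). Ldhb, the subunit of heart and kidney, had 6.87, 6.78 and 7.03 in bromate rats, against 6.96, 6.99 and 7.25 in water rats, with overlapping groups (-0.17 ± 0.12, adjusted p = 0.358). Within the shared slide neither Pkm (-0.37, adjusted p = 0.0714) nor Ldha (0.48, adjusted p = 0.0621) was called, and both calls were lost with any array left out (adjusted p up to 0.118 and 0.142).

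The promoters of Ldha and Eno2 are shown because both genes were called as risen and are known targets of hypoxia-inducible factors (HIF) and, for Ldha, of MYC. The capitals mark, for Ldha, the letters CACGTG (the E-box that MYC binds) at position -87 and a reverse-strand match to the HIF core letters ACGTG at -73. For Eno2 they mark ACGTG at -139 and the AP-1 letters TGANTCA at -115. Both are RefSeq sequences on GRCr8 of the 250 bases before the start, Ldha from chr1:106507842-106508091 on the plus strand and Eno2 from chr4:159267221-159267470 on the minus strand.
Ldha: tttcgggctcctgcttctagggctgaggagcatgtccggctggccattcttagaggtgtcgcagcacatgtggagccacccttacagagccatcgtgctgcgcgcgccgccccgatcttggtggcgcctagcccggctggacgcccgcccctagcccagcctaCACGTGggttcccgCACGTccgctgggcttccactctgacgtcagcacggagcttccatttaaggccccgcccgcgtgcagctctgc
Eno2: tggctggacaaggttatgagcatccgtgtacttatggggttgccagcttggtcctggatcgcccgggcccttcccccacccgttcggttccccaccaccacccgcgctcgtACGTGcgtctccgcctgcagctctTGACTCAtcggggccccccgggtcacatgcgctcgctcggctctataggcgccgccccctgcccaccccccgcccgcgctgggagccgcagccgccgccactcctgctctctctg
Both strands were searched, from 250 bases before to 50 after the start, in the 33 of 36 genes that had such a sequence and in all 33469 promoters of this length. Positions are counted from the gene's start. The E-box, which contains the letters ACGTG on both strands, was found in 3 of the 33 promoters (Pfkfb3, Ldha and G6pc3) and in 6.42% of all promoters. ACGTG itself was found in 11 of the 33 and in 19.3% of all. Together with the other HIF core, GCGTG, it was found in 18 of the 33 and in 41.6% of all. The AP-1 letters were in Pfkfb2 and Eno2, and in 7.33% of all, and the core of the antioxidant response element, TGACNNNGC, was in Aldoa, Fbp1 and Khk, and in 12.1% of all. The HNF4 letters CAAAGTCCA were found in 0 of the 33, and in 0.391% of all promoters. A match describes letters and is not a measured binding site.

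**Figure D3:**
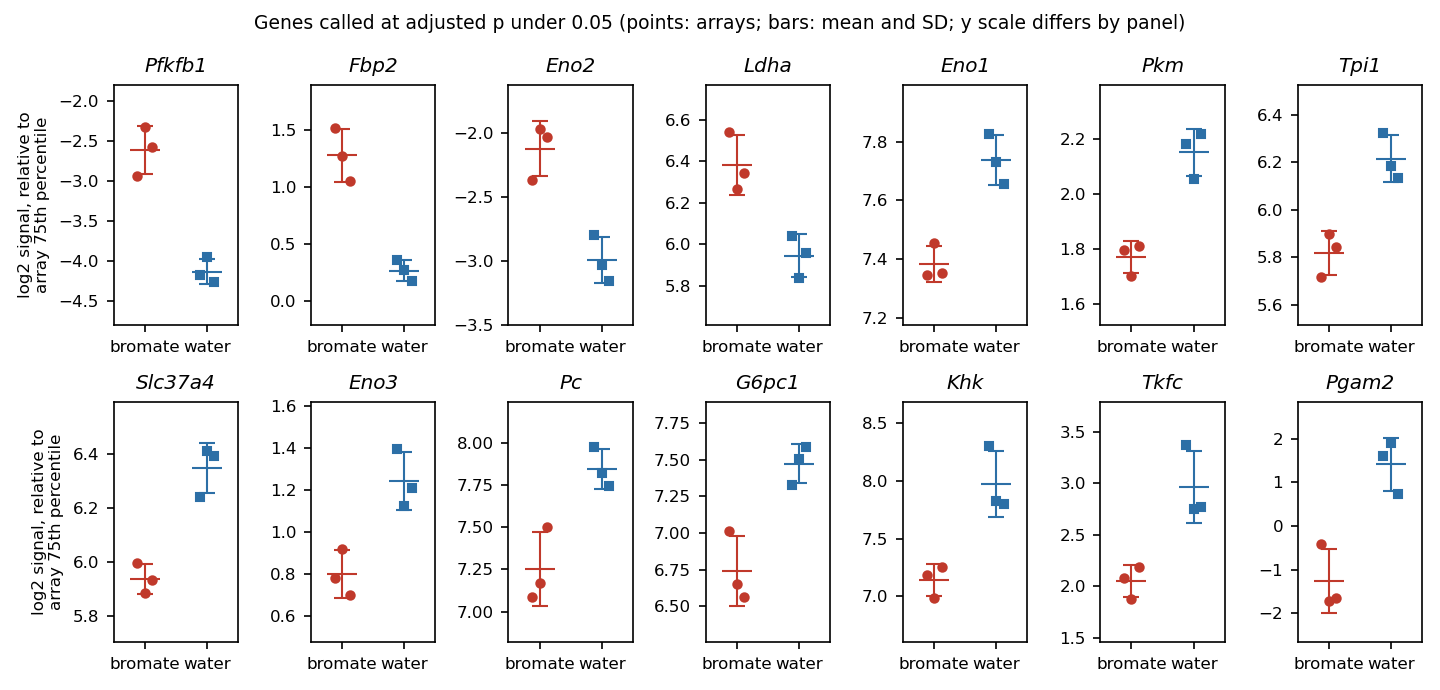
Levels (log2 relative to the array's 75th percentile) of the 14 called genes, 1 panel per gene with its own vertical scale, bromate left of water, with points for the 3 arrays of a group and a bar for the mean with SD. No panel has overlapping groups, and Khk and Tkfc each have 1 control, water replicate 1, above the other controls (8.31 and 3.37).

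Isozymes of the same step were also compared with each other. For 11 measured pairs, the difference between both genes was taken within each array and compared between groups by a two-sided exact permutation test, which cannot go below p = 0.1 with 3 arrays against 3. In 7 pairs the groups did not overlap. Each of these reached the smallest exact p of 0.1, with an exact permutation p of 0.157 after adjustment over the 11 pairs, so no pair passed. Fbp2 over Fbp1 was 1.29 higher in bromate rats, Eno2 over Eno1 1.23, G6pc3 over G6pc1 0.84, and Ldha over Ldhb 0.61. The value for Eno2 over Eno1 was 0.29 with normexp and 0.83 with the mean of probes, and the second Eno2 probe lacks the rise. Pck2 over Pck1 was 0.44 higher, and Pfkm over Pfkl differed by -0.45. Pfkfb3 over Pfkfb2, at 0.61, rests on the brighter Pfkfb2 probe, which its other probe contradicts, and was 0.081 with normexp and 0.22 with the mean of probes. Pkm over Pklr (0.65), Pfkp over Pfkl (0.42), Eno3 over Eno1 (-0.09) and Aldoc over Aldoa (-0.20) overlapped between groups, with p from 0.2 to 0.9. Aldoc over Aldoa changed sign, to 0.10, without bromate replicate 1.

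**Figure D4:**
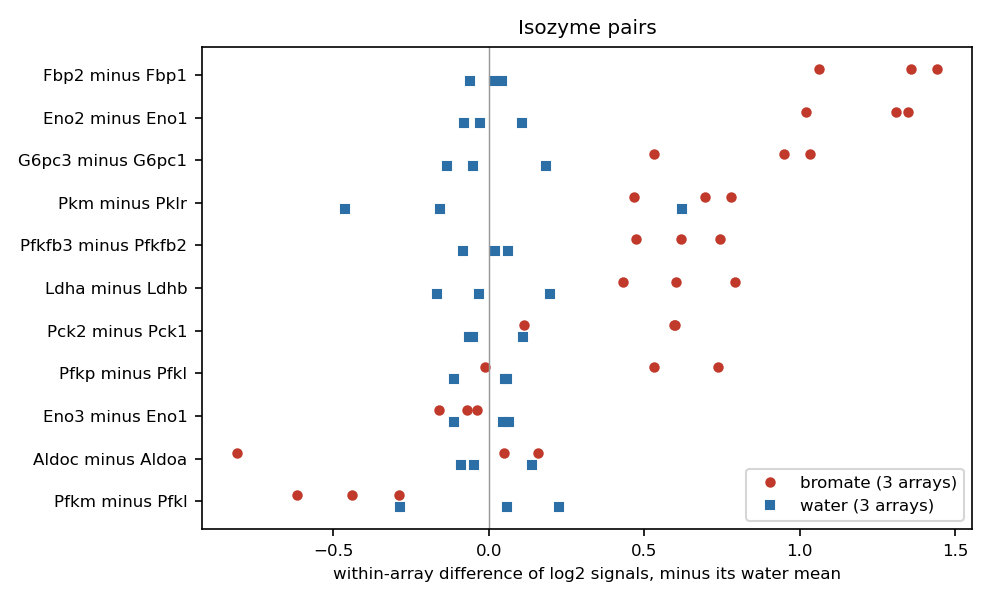
Within-array difference of the log2 signals of 11 isozyme pairs, minus the mean of that difference over the water arrays (horizontal axis), in 1 row per pair with bromate arrays (circles) above water arrays (squares). Fbp2 minus Fbp1 and Eno2 minus Eno1 lie farthest from their controls, at means of 1.29 and 1.23, and 4 pairs overlap.

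Most genes of the set could be read on more than 1 probe. The 36 genes had 72 named probes, of which 66 passed the brightness requirement. Besides the probes used, 31 other probes of 24 genes were measured. Of these 26 differed in the same direction as the probe used and 5 in the opposite one, among them the called Pfkfb2 probe. The 14 other probes of the called genes all went in the same direction as the probe used, and 10 of them were called when every probe was tested for itself, where 14.8% of 37781 probes were called. These 10 include the Pfkfb1 probe that was well above background on 1 water array. Probe sequences were not used here, so probes of Gapdh, Pgk1, Eno1, Ldha and Aldoa, genes that have many near-identical processed copies in rodent genomes, may also bind transcripts of those copies.

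**Figure D5:**
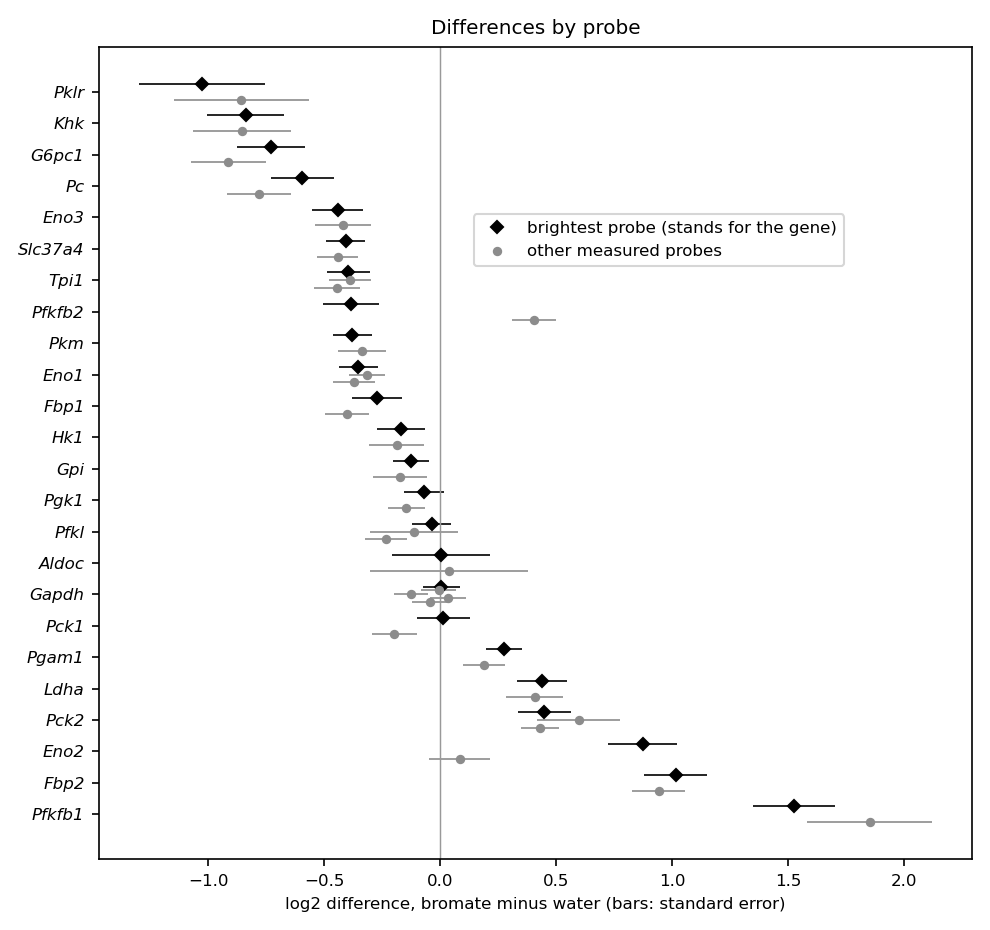
Difference between bromate and water rats (log2, horizontal axis, bars for the standard error) for each measured probe of the 24 genes that have more than 1, with the probe used in black and the other probes in grey. Both Fbp2 probes lie near 1 and the 5 Gapdh probes near 0, while the Eno2 probes lie apart and the Pfkfb2 probes lie on opposite sides of 0.

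Counts for the related lists and cell type markers that follow stand beside 6.87% of all genes called as risen and 7.59% as fallen. Of 23 measured genes that decide the fate of pyruvate 1 rose and 2 fell, with a median of -0.26. The widest difference was that of Slc16a7, for the monocarboxylate carrier MCT2, with -0.03, 0.10 and 0.15 in bromate rats, against 1.42, 1.60 and 1.75 in water rats. Slc16a7 was 2.86-fold lower (-1.51 ± 0.11, adjusted p = 0.00249), a call that held with any array left out (adjusted p up to 0.018). Pdp1, a phosphatase that activates pyruvate dehydrogenase, rose by 0.71 ± 0.11 (1.64-fold, adjusted p = 0.0161). Pdha1, the catalytic subunit of pyruvate dehydrogenase, fell by 0.50 ± 0.09 on the log2 scale (1.41-fold, adjusted p = 0.0215). The call of Pdp1 was lost without bromate replicate 2, bromate replicate 3, water replicate 2 or water replicate 3, and that of Pdha1 with any array left out but water replicate 1.

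Of 29 measured genes for other routes of sugar entry and for glycogen, 2 rose and 2 fell, with a median of 0.03. Galm, the mutarotase of galactose and glucose, had 3.90, 3.88 and 4.03 in bromate rats, against 4.48, 4.72 and 4.66 in water rats (1.61-fold lower, -0.68 ± 0.10, adjusted p = 0.0131). Tigar, whose product breaks down fructose-2,6-bisphosphate, had 0.15, 0.10 and 0.15 in bromate rats, against -0.43, -0.29 and -0.38 in water rats (1.42-fold higher, 0.50 ± 0.08, adjusted p = 0.0155). Aldh2, an aldehyde dehydrogenase, fell by 0.62 ± 0.13 on the log2 scale (adjusted p = 0.0326), and Pmm1, a phosphomannomutase, rose by 0.49 ± 0.11 (adjusted p = 0.0377). The calls of Aldh2 and Pmm1 were lost with any array left out. That of Galm was lost without bromate replicate 2, water replicate 2 or water replicate 3, and that of Tigar without bromate replicate 2, bromate replicate 3 or water replicate 3.

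Of 21 measured transcription regulators of glucose metabolism 1 rose and 5 fell, with a median of -0.18. Hnf4a, for HNF4 alpha of proximal tubule and liver, had 3.07, 2.95 and 3.13 in bromate rats, against 3.82, 3.78 and 3.64 in water rats (1.62-fold lower, -0.70 ± 0.09, adjusted p = 0.0105). The call of Hnf4a held with any array left out (adjusted p up to 0.0494). Klf15, a factor that promotes gluconeogenic genes in fasting, fell by 0.88 ± 0.13 on the log2 scale (1.84-fold, adjusted p = 0.0137), a call that was lost without bromate replicate 2 (adjusted p = 0.0514). Myc, a factor that drives glycolytic genes in growing cells, had 2.11, 1.82 and 1.47 in bromate rats, against -0.76, -0.31 and -0.52 in water rats, and rose 5.02-fold (2.33 ± 0.20, adjusted p = 0.00311), with any array left out (adjusted p up to 0.0193). Also lower were 2 more of them, Foxo1 (-0.37 ± 0.08, adjusted p = 0.0333) and Ppargc1a (-0.47 ± 0.12, adjusted p = 0.0475), which are outside the rule for naming and were chosen after their values were seen.

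Of 16 measured HIF targets outside glycolysis 1 rose and 1 fell, with a median of 0.06. Hmox1, for haem oxygenase 1, which is also a target of NRF2, rose 4.34-fold (2.12 ± 0.24, adjusted p = 0.00701), with any array left out (adjusted p up to 0.0288). Vegfa, for the vascular endothelial growth factor A, fell by 0.37 ± 0.09 on the log2 scale (1.29-fold, adjusted p = 0.0407), a call lost with any array left out (adjusted p up to 0.122) and with the mean of its probes (-0.19, adjusted p = 0.159). Hif1a was higher by 0.31 ± 0.12 and not called (adjusted p = 0.124), and it too was chosen after its values were seen.

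Markers of several cell types differed between the groups beside these genes. Of 11 convoluted proximal tubule markers 4 fell. The 7 not called include 3 that were higher in bromate rats, Slc5a12 (0.35), Slc7a7 (0.28) and Slc4a4 (0.23). Of 5 measured thick ascending limb and distal tubule markers 4 fell, and of 8 collecting duct markers 5 fell. The collecting duct markers averaged 2.34, 2.23 and 2.31 in bromate rats, against 3.51, 3.70 and 3.87 in water rats. Among them Slc26a4 fell most (-5.47), and the 3 not called were Aqp2 (0.40), Aqp3 (0.03) and Scnn1g (-0.53). Of 7 measured macrophage markers 1 rose (Cd14), with means of 0.17, 0.68 and 0.56 in bromate rats, against -0.01, 0.18 and 0.26 in water rats. Bromate replicate 1 was thus within the water range. The other 6 markers were not called, and 2 of them, Ptprc (-0.11) and Adgre1 (-0.49), were lower in bromate rats. Of 4 measured markers of proliferating cells 1 rose (Mcm3), with means of -0.34, 1.099 and 0.90 in bromate rats, against -0.09, -0.10 and -0.58 in water rats. The 3 measured adipocyte markers, with 0 called, averaged -2.45, -2.33 and -1.88 in bromate rats, against -0.60, -1.70 and -2.47 in water rats. Of the 4 measured red blood cell markers 1 fell, the anion exchanger gene Slc4a1 (-1.59), which is also among the 5 collecting duct markers that fell. The other 3, Hbb (0.15), Alas2 (0.39) and Ahsp (0.30), were not called (adjusted p = 0.55 to 0.812). The part of these cell types in the differences of the glycolytic and gluconeogenic genes was not tested.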

How the data were processed

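Renal cortex RNA was labelled with Cy3 and put on Agilent arrays, 1 per animal, per the labels' protocols. Scanning used Agilent Feature Extraction, version 10.7, according to the submitters' processing notes. Per the file headers, the processed signal of a spot is an intensity after background subtraction and detrending, with no scaling across arrays. The values that the authors deposited as a series-wide table are a ratio. Divided by its array's 75th percentile, the processed signal departed from them by at most 0.644% to 0.814% of the value, depending on the array. The smallest table values were left out of this comparison. Medians of all table values were 0.1025, 0.1054 and 0.1026 for bromate and 0.1043, 0.1049 and 0.103 for water replicates. Scale and direction follow from this match, centring by gene was not seen, and the software that made the table is not stated.

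The deposited intensities were converted to log2, from which each array's log2 75th percentile was taken away, without the 1439 control spots and with 0 to 4 outlier spots per array set to missing. Transcript accessions named the probes through the gene table of RefSeq, which gave 28206 of them 1 symbol and 0 several, while 33331 stayed unnamed here. The 37783 probes well above background on 3 or more arrays entered, and the brightest stood for each of 27506 genes, 11572 with a symbol. The groups, 3 biological replicates each per the series design, were tested by lmFit with eBayes (limma 3.58.1, R 4.3.3, data.table, version 1.17.8) without a slide term. The procedure was tested on simulated data. Across genes, arrays correlated at 0.988 to 0.991 within bromate, 0.983 to 0.992 within water and 0.966 to 0.978 between groups.

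The member genes, the related lists, the markers and the isozyme pairs were chosen with earlier results of these data known. Each called member is named, with the rate-setting ones that were not called, and up to 4 called genes of each related list with the largest difference. Not every gene that falls under it is reported here. Beside the main setting 19 alternatives were run, covering scaling, background correction (normexp with offset 50), the filter, probes per gene, the variance model, array weights, slide, replicate number, the straight tubule mean as a covariate and each array left out. The slide block and the fit without water replicate 1 are the same fit, so it is counted more than once among the 19. Promoters are RefSeq sequences on GRCr8. The arrays are annotated on another rat build, so no array coordinates are given.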

Additional observations from a re-analysis of the deposited data

How the results depend on the processing

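The median over the 35 genes moved from -0.17 to -0.12 with quantile normalization and -0.11 with normexp. Without the filter on dim probes 750 genes rose and 694 fell, of the members 2 rose and 1 fell. With array weights 3258 genes fell. With slide as a block 6 members fell. The straight tubule covariate left 426 genes risen, 345 fallen and 0 members either way. The labels do not say whether replicate numbers pair the animals. Deviations of same-numbered arrays correlated at 0.0506, 0.0699 and -0.0953, and those of differently numbered arrays at -0.119 to 0.087. With 3 arrays per group these values cannot decide whether animals were paired. With a replicate block 585 genes rose and 535 fell, of the members 2 rose and 0 fell. Leaving out 1 array gave 594 to 1495 genes risen and 530 to 1835 fallen, 2 to 4 members risen and 0 to 6 fallen, and medians of -0.17 to -0.11. Among isozyme pairs, Eno2 over Eno1 was 0.29 and Pfkfb3 over Pfkfb2 0.081 with normexp, against 1.23 and 0.61 in the main setting. Aldoc over Aldoa ran from -0.38 to 0.10 on leaving out 1 array. Signs turned for genes that were not called: with normexp Aldoc (-0.028), Pfkfb3 (-0.045) and Pgk1 (0.000433), with the mean of probes Pfkfb2 (0.0089), Gapdh (-0.029) and Pck1 (-0.093), with array weights Pck1 (-0.0043), with slide as a block Hk3 (-0.041), Pfkl (0.0070) and Aldoc (-0.071), and with the covariate Hk3 (-0.10), Pfkl (0.0030) and Aldoc (-0.083). On leaving out 1 array, the differences ran from -0.10 to 0.22 for Hk3, -0.071 to 0.0070 for Pfkl, -0.15 to 0.23 for Aldoc, -0.034 to 0.034 for Gapdh and -0.059 to 0.10 for Pck1. Of 912 values for single genes under alternatives, 687 kept direction and side of the threshold, 176 lost and 23 gained a call and 26 turned sign. The share of calls that rose lay between 44.9% and 55.3% (47.5% in the main setting). The alternatives that leave out arrays or add a term have fewer arrays or degrees of freedom, the one without a filter tests more dim genes, Pfkfb2 turned because its 2 probes differ in direction, and other causes were not tested. The pair of Hk2 and Hk1 could not be measured because Hk2 was too dim.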
